A study of Danio rerio with 30 samples.

Results

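The oligodendrocyte and myelin genes of the zebrafish (Danio rerio) retina followed here are 9 genes of the 32520 Ensembl genes listed in each of the study's 2 count tables. They were chosen by name, with earlier results of these data known. In the tables mbpa, mbpb, plp1b, cldnk, erbb3b and olig1 stand under those symbols, mpz and sox10 stand in capitals, and nkx2.2a stands as NKX2-2, which RefSeq lists as a synonym of the zebrafish gene. All 9 were found. In the needle poke experiment 8 passed the filter on low counts, and in the NMDA experiment 7 did.

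Oligodendrocytes are the glia that wrap axons of the central nervous system in myelin, a stack of compacted membrane that speeds conduction. In the visual system they wrap the axons of retinal ganglion cells, mainly along the optic nerve. The sheath is built late in the life of the cell, after transcription factors have set the lineage, and its proteins are among the most abundant messages of a mature oligodendrocyte. Of the 5 sheath genes, mbpa (ENSDARG00000036186) and mbpb (ENSDARG00000089413) encode myelin basic protein, which holds the inner faces of the membrane together. The gene plp1b (ENSDARG00000011929) encodes a membrane protein of the compact sheath. Myelin protein zero, the product of mpz (ENSDARG00000038609), is an adhesion protein that mammals use in peripheral myelin and fish use in central myelin as well. Claudin k, from cldnk (ENSDARG00000042357), is a tight junction protein of myelinating glia in zebrafish. Of the other 4 genes, sox10 (ENSDARG00000077467), nkx2.2a (ENSDARG00000053298) and olig1 (ENSDARG00000040948) encode transcription factors of the lineage. The fourth, erbb3b (ENSDARG00000036993), encodes a receptor for neuregulin, a signal from axons to myelinating glia. The factor encoded by sox10 also acts in the neural crest, which gives rise to Schwann cells and pigment cells.

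Polyadenylated RNA of adult retinas was sequenced in 30 libraries, 3 in each of 10 groups. All fish of the needle poke experiment were wild type (WT). Injured retinas came from fish kept in water with PLX3397, ZVAD-fmk or DMSO, and the fourth group was uninjured and untreated. PLX3397 (pexidartinib) inhibits the receptor of colony-stimulating factor 1, on which microglia depend, ZVAD-fmk blocks caspases, which carry out apoptosis, and DMSO is the solvent control. In the NMDA experiment retinas of csf1ra mutants, csf1rb mutants and WT fish were injured with NMDA, an excitotoxin given into the eye, and uninjured retinas of the same 3 genotypes were taken beside them. The genes csf1ra and csf1rb are the zebrafish paralogs of that receptor. Injured retinas were taken 2 days after injury, none of the NMDA groups received a drug, and the labels give no allele or zygosity for the mutants. The untreated uninjured group had neither the needle nor DMSO, so injury and solvent cannot be told apart in a comparison with it. The titles also hold the letters MG, which often stand for Müller glia, although the retinas were extracted whole and no cell sorting is named. The labels do not say whether the 3 libraries of a group came from separate fish, so p-values measure the spread between libraries only.

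The needle poke libraries held 38933511 to 92198888 counts each, and the NMDA libraries 22849708 to 41622168. Levels are given as CPM, the count of a gene scaled to library size with TMM factors, and 3 counts in a library corresponded to 0.0323 to 0.124 CPM. Transcripts of rods were present in every library, with a summed level of 4 rod genes between 115 and 3390 CPM. Those of Müller glia were too, with a summed level of 3 genes between 907 and 10400 CPM. Whether the libraries were enriched for any cell type was not tested. In the csf1ra mutants csf1ra itself lay between 0.162 and 0.315 CPM in uninjured retinas, against 3.92 to 4.34 CPM in WT uninjured retinas. In the csf1rb mutants csf1rb lay between 0 and 0.0353 CPM after NMDA, against 0.268 to 0.373 CPM in WT NMDA retinas, and between 0.0573 and 0.37 CPM in uninjured retinas, against 0.33 to 0.792 CPM in WT uninjured retinas, where the groups overlapped. In uninjured retinas each gene also lay below every WT library in the other mutant, with csf1rb between 0.0369 and 0.175 CPM in csf1ra mutants and csf1ra between 1.03 and 1.89 CPM in csf1rb mutants. The level of csf1rb therefore does not tell the 2 uninjured mutants apart. Each experiment carries a batch code of its own in the labels, so each was fitted by itself and every comparison lies within 1 batch. On principal components of the needle poke experiment, DMSO library 3 and untreated uninjured library 2 stood apart from their groups. These 2 libraries held the highest level of mbpa, plp1b and cldnk in their groups, so the main values against DMSO or untreated uninjured libraries are also given without these 2 libraries. No library was a copy of another of its group, as chi-square values per degree of freedom started at 7.56. Some pairs were closer than others of their group. ZVAD-fmk libraries 2 and 3 were at 7.56, against 62.79 and 66.04 with ZVAD-fmk library 1. DMSO libraries 1 and 2 were at 12.55, against 216.97 and 157.34 with DMSO library 3. Whether closer libraries shared fish or handling was not tested.

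The plot of the sheath genes by library shows the main pattern. In each experiment mbpa, plp1b and cldnk had their highest group means in uninjured retinas, and in the needle poke experiment their lowest were in the group kept in PLX3397. Levels are comparable within an experiment only, and not between genes, because the counts are not scaled for gene length. A fall can come, among other sources, from fewer cells of a type in the material extracted or from less RNA per cell. The sources cannot be told apart here.

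**Figure D1:**
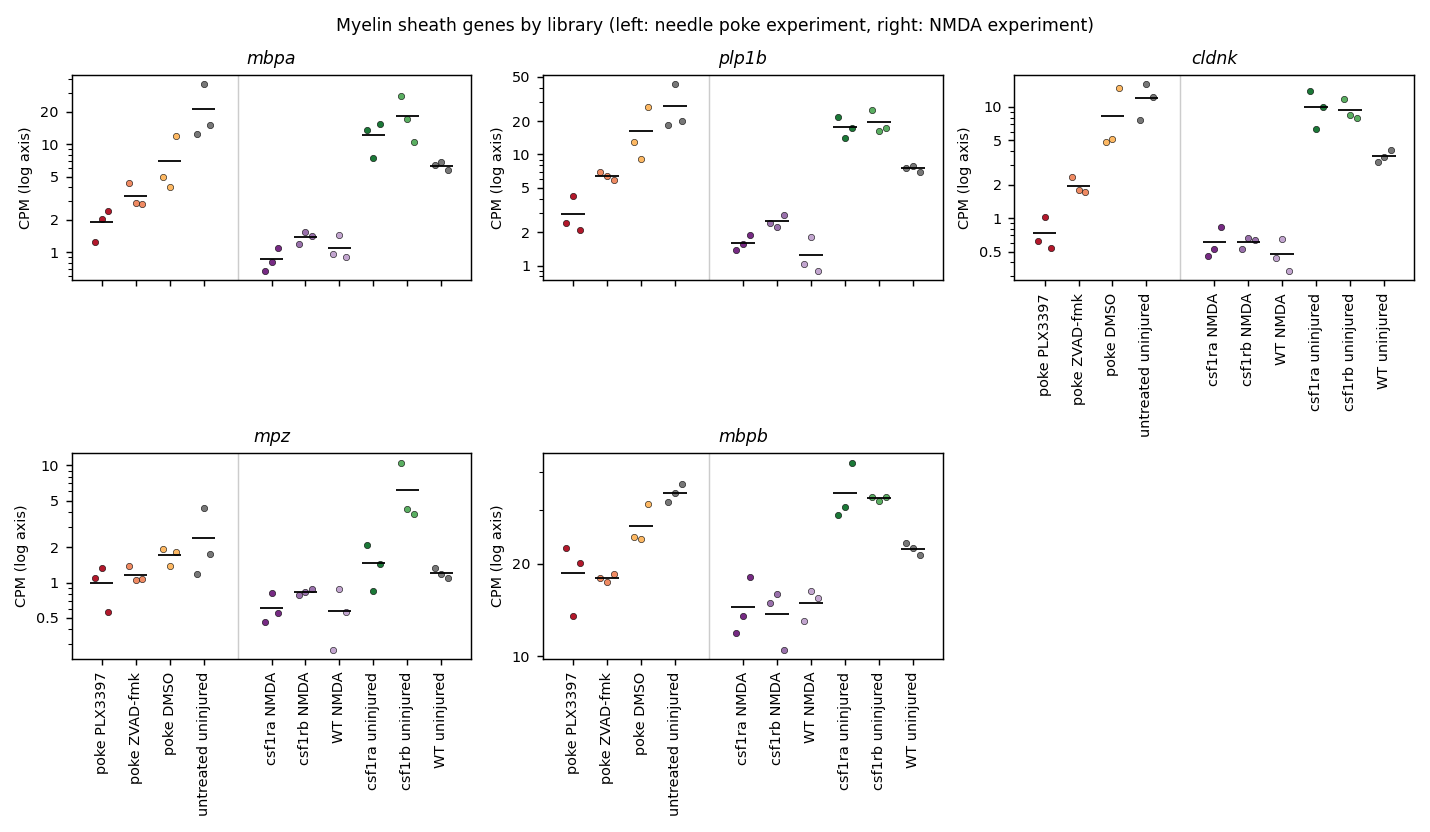
Levels of the 5 sheath genes in each of the 30 libraries, in CPM on a log axis, with the needle poke experiment left of the grey line and the NMDA experiment right of it. Points are libraries and black bars are group means. In the NMDA experiment every injured library lies below every uninjured library of its genotype for mbpa, plp1b and cldnk. The same held for 35.7% of all genes tested in csf1ra mutants, 36.1% in csf1rb mutants and 38.1% in WT fish.

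After needle poke in DMSO, 2 of the 8 members tested fell and none rose relative to untreated uninjured retinas, and 31.6% of all genes tested were called in that comparison, 18.2% as higher and 13.4% as lower. Called means an adjusted p under 0.05 in edgeR's quasi-likelihood test, with Benjamini-Hochberg adjustment over all genes tested. The median log2 fold change of the 8 members was -0.84, against -0.03 over all genes. All DMSO libraries lay above all untreated uninjured libraries for 22.3% of all genes tested, and below them for 20.3%. The lineage factor gene sox10 had 40.1, 43.0 and 33.8 CPM in DMSO libraries, against 107, 188 and 128 CPM in untreated uninjured libraries. The groups did not overlap, the DMSO mean was 3.61-fold lower, and the log2 fold change was -1.85 ± 0.18 (SE, edgeR adjusted p = 5.9e-06), or -1.55 (edgeR adjusted p = 7.3e-06) without both libraries that stood apart. The sheath gene mbpa had 5.01, 3.99 and 12 CPM in DMSO libraries and 12.3, 36.1 and 15.2 CPM in untreated uninjured libraries. The groups did not overlap, although DMSO library 3 came close to the lowest uninjured library, and the log2 fold change was -1.60 ± 0.46 (SE, edgeR adjusted p = 0.017). That call was lost without DMSO library 1 (-1.40), DMSO library 2 (-1.32) or untreated uninjured library 2 (-0.96). Without DMSO library 3 the value was -2.23, and without both libraries that stood apart it was -1.66 (edgeR adjusted p = 0.0028).

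For plp1b the DMSO libraries had 13.1, 9.19 and 26.6 CPM and the untreated uninjured libraries 18.4, 43.2 and 20.2 CPM. For cldnk they had 4.87, 5.10 and 14.8 CPM, against 7.59, 16.1 and 12.4 CPM in untreated uninjured libraries. For both genes the groups overlapped through DMSO library 3, and neither was called, with log2 fold changes of -0.75 ± 0.40 (SE, edgeR adjusted p = 0.18) for plp1b and -0.54 ± 0.41 (SE, edgeR adjusted p = 0.36) for cldnk. Without that library both were called, at -1.29 for plp1b and -1.27 for cldnk, and without both libraries that stood apart the count was 5 members lower of 8. The other paralog of myelin basic protein, mbpb, had 24.5, 24.1 and 31.3 CPM in DMSO libraries, against 31.7, 33.9 and 36.4 CPM in untreated uninjured libraries, and its log2 fold change of -0.35 ± 0.17 (SE, edgeR adjusted p = 0.14) did not pass. The gene mpz, at -0.50 (edgeR adjusted p = 0.47), was not called either, and its value was 0.23 without untreated uninjured library 2 and 0.12 (edgeR adjusted p = 0.88) without both libraries that stood apart. For mbpb that value was -0.54 (edgeR adjusted p = 0.077).

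The lineage factor gene nkx2.2a was scarce, with 0.108, 0.432 and 0.439 CPM in DMSO libraries, against 3.42, 0.744 and 1.71 CPM in untreated uninjured libraries. Its groups did not overlap, but the log2 fold change of -2.60 ± 0.98 (SE, edgeR adjusted p = 0.06) did not pass. DESeq2 called it (adjusted p = 0.014), and so did edgeR without untreated uninjured library 2 (-2.97, edgeR adjusted p = 0.04) and without both libraries that stood apart, at -3.34 (edgeR adjusted p = 0.046). Without untreated uninjured library 1 it was -1.92 and not called. With only the groups compared in the fit it was called (edgeR adjusted p = 0.045). The neuregulin receptor gene erbb3b had 0.527, 0.617 and 0.339 CPM in DMSO libraries and 0.542, 0.853 and 1.47 CPM in untreated uninjured libraries, which overlapped, and -0.94 (edgeR adjusted p = 0.13) on the log2 scale did not pass. For olig1 only DMSO library 2 held any count, at 0.123 CPM, against 0 in all 3 untreated uninjured libraries, so no change was detectable at this depth.

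With PLX3397, 4 sheath genes were lower than in DMSO after the same injury, and sox10 and erbb3b were higher. These 6 of 8 members compare with 34.2% of all genes called, 16.5% as higher and 17.7% as lower, and the median of the 8 was -1.19 on the log2 scale, against -0.01 over all genes. All PLX3397 libraries lay above all DMSO libraries for 22.4% of all genes tested, and below them for 23.8%. Claudin k showed the largest change of the members: cldnk had 0.622, 1.03 and 0.536 CPM in PLX3397 libraries, against 4.87, 5.10 and 14.8 CPM in DMSO libraries. The PLX3397 mean was 11.3-fold lower without overlap, with a log2 fold change of -3.49 ± 0.47 (SE, edgeR adjusted p = 0.00014). It was -2.76 without DMSO library 3 and -2.72 (edgeR adjusted p = 9.8e-05) without both libraries that stood apart. For plp1b the PLX3397 libraries had 2.42, 4.26 and 2.11 CPM, against 13.1, 9.19 and 26.6 CPM in DMSO, a mean 5.56-fold lower with a log2 fold change of -2.47 ± 0.42 (SE, edgeR adjusted p = 0.00068). That value was -1.93 without DMSO library 3 and -1.89 (edgeR adjusted p = 0.00031) without both libraries that stood apart. For mbpa they had 1.24, 2.01 and 2.40 CPM, against 5.01, 3.99 and 12 CPM in DMSO. All 3 PLX3397 libraries lay below all 3 DMSO libraries, and the log2 fold change was -1.89 ± 0.48 (SE, edgeR adjusted p = 0.008), or -1.26 without DMSO library 3 and -1.22 (edgeR adjusted p = 0.0089) without both. The gene mbpb had 22.5, 13.5 and 20.1 CPM with PLX3397 and 24.5, 24.1 and 31.3 CPM in DMSO, a smaller difference of -0.51 ± 0.17 (SE, edgeR adjusted p = 0.035) on the log2 scale. Its call was lost without PLX3397 library 2 (-0.32), PLX3397 library 3 (-0.56) or DMSO library 3 (-0.38), and without both libraries that stood apart it was -0.33 (edgeR adjusted p = 0.21).

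ZVAD-fmk gave fewer calls than PLX3397: mbpb, plp1b and cldnk were lower than in DMSO and erbb3b was higher, 4 of 8 members, beside 18.7% of all genes called, 9.70% as higher and 8.96% as lower. The median of the 8 was -0.82 on the log2 scale, against -0.02 over all genes. All ZVAD-fmk libraries lay above all DMSO libraries for 22.8% of all genes tested, and below them for 21.7%. For cldnk the ZVAD-fmk libraries had 2.33, 1.80 and 1.71 CPM, below every DMSO library, and the log2 fold change was -2.08 ± 0.43 (SE, edgeR adjusted p = 0.0053), or -1.35 without DMSO library 3 and -1.35 (edgeR adjusted p = 0.0088) without both libraries that stood apart. For plp1b they had 6.94, 6.35 and 5.86 CPM, also below every DMSO library, with a log2 fold change of -1.35 ± 0.40 (SE, edgeR adjusted p = 0.034). That call was lost without DMSO library 3 (-0.80) and without any of ZVAD-fmk libraries 1, 2 and 3 (-1.42, -1.34 and -1.29). Without both libraries that stood apart it was -0.80 (edgeR adjusted p = 0.049), and for mbpb it was then -0.43 (edgeR adjusted p = 0.14). The gene mbpb had 18, 17.5 and 18.6 CPM with ZVAD-fmk, close to one another and below every DMSO library, with a log2 fold change of -0.57 ± 0.17 (SE, edgeR adjusted p = 0.036). Its call was lost without DMSO library 1 (-0.62) or 3 (-0.43), or without ZVAD-fmk library 1 (-0.57), 2 (-0.54) or 3 (-0.59). The values of mbpa were 4.40, 2.86 and 2.77 CPM with ZVAD-fmk, which overlapped the DMSO libraries, and -1.06 ± 0.46 (SE, edgeR adjusted p = 0.13) on the log2 scale did not pass. This value turned on 1 library, as it was -0.43 without DMSO library 3 and -0.43 (edgeR adjusted p = 0.34) without both libraries that stood apart.

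Of the genes outside the sheath, erbb3b was higher with both drugs. The receptor gene erbb3b had 1.62, 1.85 and 1.23 CPM in PLX3397 libraries, against 0.527, 0.617 and 0.339 CPM in DMSO libraries, a mean 3.17-fold higher with a log2 fold change of 1.66 ± 0.45 (SE, edgeR adjusted p = 0.012). In ZVAD-fmk libraries it had 1.74, 1.90 and 1.33 CPM, against those same DMSO libraries, with a log2 fold change of 1.74 ± 0.45 (SE, edgeR adjusted p = 0.017). Every drug library lay above every DMSO library. The ZVAD-fmk call was lost without ZVAD-fmk library 1 (1.70) or 2 (1.63). Without both libraries that stood apart erbb3b was at 1.5 (edgeR adjusted p = 0.028) with PLX3397 and 1.54 (edgeR adjusted p = 0.037) with ZVAD-fmk. The lineage factor gene sox10 had 53.3, 51.6 and 61.2 CPM in PLX3397 libraries and 40.1, 43.0 and 33.8 CPM in DMSO libraries, with a log2 fold change of 0.51 ± 0.18 (SE, edgeR adjusted p = 0.039). This smaller rise lost its call without PLX3397 library 1 (0.54) or 3 (0.43), or without DMSO library 1 (0.53) or 3 (0.42), and it was 0.46 (edgeR adjusted p = 0.01) without both libraries that stood apart. With ZVAD-fmk sox10 had 48.2, 46.0 and 47.4 CPM, above every DMSO library, but 0.28 ± 0.18 (SE, edgeR adjusted p = 0.31) on the log2 scale did not pass.

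The remaining members did not pass against DMSO with either drug. For mpz the libraries had 1.1, 1.32 and 0.556 CPM with PLX3397, 1.37, 1.04 and 1.07 CPM with ZVAD-fmk and 1.92, 1.40 and 1.83 CPM in DMSO. The log2 fold changes of mpz were -0.79 (edgeR adjusted p = 0.22) with PLX3397 and -0.56 (edgeR adjusted p = 0.46) with ZVAD-fmk. For nkx2.2a the libraries had 0.0982, 0.214 and 0 CPM with PLX3397, 0.132, 0.185 and 0.0488 CPM with ZVAD-fmk and 0.108, 0.432 and 0.439 CPM in DMSO. All 9 values were below 1 CPM, and neither drug passed against DMSO, at -1.59 (edgeR adjusted p = 0.25) with PLX3397 and -1.38 (edgeR adjusted p = 0.38) with ZVAD-fmk. For olig1 the highest of these 9 libraries was at 0.123 CPM and 5 were at 0.

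Set against each other, PLX3397 and ZVAD-fmk gave no called member by edgeR, beside 8.24% of all genes called, 3.43% as higher and 4.81% as lower. At an unadjusted p under 0.05 there were 2 members, and DESeq2 called 2, plp1b and cldnk. All PLX3397 libraries lay above all ZVAD-fmk libraries for 16.8% of all genes tested, and below them for 18.7%. The log2 fold change of cldnk, PLX3397 over ZVAD-fmk, was -1.41 ± 0.45 (SE, edgeR adjusted p = 0.075), with a 95% interval of -2.39 to -0.43, and all 3 PLX3397 libraries lay below all 3 ZVAD-fmk libraries. For plp1b it was -1.12 ± 0.41 (SE, edgeR adjusted p = 0.11) with an interval of -2.01 to -0.23, also without overlap, and for mbpa it was -0.83 ± 0.47 (SE, edgeR adjusted p = 0.32) with an interval of -1.85 to 0.19. Without PLX3397 library 2, cldnk was called at -1.74. In the fit without both libraries that stood apart, neither of them from these groups, cldnk was called at -1.38 (edgeR adjusted p = 0.0098) and plp1b at -1.09 (edgeR adjusted p = 0.011). The labels give no concentration for either compound.

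Relative to untreated uninjured retinas, 7 of 8 members were lower with PLX3397 and 6 of 8 with ZVAD-fmk, and none was higher in these 2 comparisons. Of all genes, 42.9% were called with PLX3397, 23.0% as higher and 19.9% as lower, and 40.5% with ZVAD-fmk, 21.9% as higher and 18.6% as lower. The 3 comparisons with the untreated uninjured libraries share those controls, so their values are given side by side and not as repeats. For cldnk the log2 fold change was -4.04 with PLX3397, -2.63 with ZVAD-fmk and -0.54 in DMSO. For mbpa the values were -3.49, -2.67 and -1.60 in the same order, and for plp1b they were -3.22, -2.1 and -0.75. For sox10 the order was the opposite, with -1.35 with PLX3397, -1.58 with ZVAD-fmk and -1.85 in DMSO, all 3 called. The values of nkx2.2a were -4.19 ± 1.07 (SE, edgeR adjusted p = 0.0065) with PLX3397 and -3.98 ± 1.05 (SE, edgeR adjusted p = 0.0084) with ZVAD-fmk. Without untreated uninjured library 1 they were -3.52 and -3.30, and the ZVAD-fmk call was lost. The PLX3397 value was -5.19 without PLX3397 library 2. For mpz the PLX3397 value of -1.29 ± 0.48 (SE, edgeR adjusted p = 0.044) lost its call without PLX3397 library 1 (-1.36) or 3 (-1.0) or untreated uninjured library 2 (-0.55). For mpz with ZVAD-fmk -1.06 (edgeR adjusted p = 0.093) did not pass, but it did at -1.38 without untreated uninjured library 1. Without untreated uninjured library 2 the values of mbpa were -2.84 with PLX3397 and -2.03 with ZVAD-fmk, still called. Without both libraries that stood apart the PLX3397 values were -3.78 (edgeR adjusted p = 5.5e-06) for cldnk, -2.73 (edgeR adjusted p = 1.3e-05) for plp1b and -1.09 (edgeR adjusted p = 1.9e-05) for sox10. The ZVAD-fmk values were then -2.40 (edgeR adjusted p = 7.8e-05) for cldnk, -1.64 (edgeR adjusted p = 0.00038) for plp1b and -1.36 (edgeR adjusted p = 4.8e-06) for sox10. For mpz with PLX3397 the value was -0.58 (edgeR adjusted p = 0.29), no longer called.

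The order of the group means in the needle poke experiment was the same for mbpa, plp1b, cldnk and mpz: PLX3397 lowest, then ZVAD-fmk, then DMSO, then untreated uninjured. For cldnk these means were 0.730 ± 0.265, 1.95 ± 0.336, 8.27 ± 5.69 and 12 ± 4.26 CPM (SD, n = 3 each). For mbpa they were 1.89 ± 0.590, 3.34 ± 0.915, 7.0 ± 4.37 and 21.2 ± 13.0 CPM (SD, n = 3 each), and for plp1b 2.93 ± 1.16, 6.39 ± 0.541, 16.3 ± 9.12 and 27.3 ± 13.9 CPM. Of the neighbours in this order, DMSO and untreated uninjured overlapped for cldnk and plp1b, and ZVAD-fmk and DMSO overlapped for mbpa. For mpz PLX3397 and ZVAD-fmk overlapped, and so did DMSO and untreated uninjured. For mbpb the order had ZVAD-fmk (18 ± 0.550 CPM) and PLX3397 (18.7 ± 4.67 CPM) side by side and overlapping, below DMSO (26.7 ± 4.02 CPM) and untreated uninjured (34.0 ± 2.32 CPM), which did not overlap. For erbb3b it was DMSO (0.494 ± 0.142 CPM), untreated uninjured (0.953 ± 0.469 CPM), PLX3397 (1.57 ± 0.313 CPM) and ZVAD-fmk (1.66 ± 0.290 CPM), with overlap between all neighbours. For sox10 DMSO was lowest at 39.0 ± 4.74 CPM, followed by ZVAD-fmk (47.2 ± 1.12 CPM), PLX3397 (55.4 ± 5.14 CPM) and untreated uninjured (141 ± 42.0 CPM), with no overlap between neighbours.

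**Figure D2:**
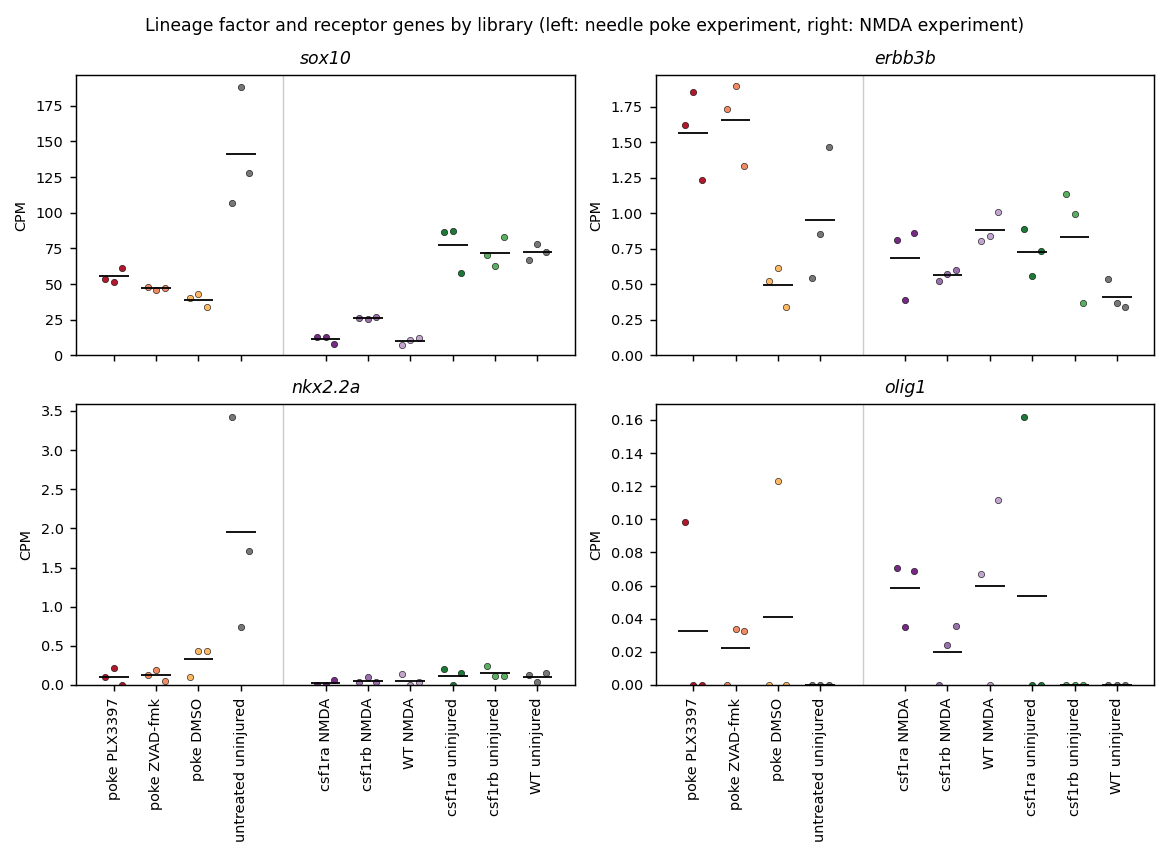
Levels of sox10, erbb3b, nkx2.2a and olig1 in each library, in CPM on a linear axis from 0, with the needle poke experiment left of the grey line and the NMDA experiment right of it. Points are libraries and black bars are group means. All injured libraries lie below all uninjured libraries for sox10 within each experiment, while erbb3b has its highest means in the 2 drug groups and olig1 is at 0 in 18 of 30 libraries. Single injured groups lay below their uninjured group for 20.3% to 26.4% of all genes tested after needle poke and 35.7% to 38.1% after NMDA. The share for all groups at once was not counted.

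In the NMDA experiment the 5 sheath genes fell in all 3 genotypes, and so did sox10. In csf1ra mutants 6 of 7 members were lower after NMDA and none was higher, beside 73.5% of all genes called, 36.4% as higher and 37.1% as lower. In csf1rb mutants 6 were lower and none higher, beside 70.5% of all genes called, 37.0% as higher and 33.5% as lower. In WT fish 6 were lower and 1 higher, beside 69.9% of all genes called, 35.6% as higher and 34.3% as lower. The medians over the 7 were -2.76, -2.87 and -2.52 on the log2 scale in csf1ra, csf1rb and WT fish, against -0.01, 0.06 and 0.02 over all genes. All injured libraries lay below all uninjured ones for 35.7%, 36.1% and 38.1% of all genes tested in csf1ra, csf1rb and WT fish. Most genes tested were called in these comparisons, so the values below lead with the size of each change.

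The gene cldnk had 0.435, 0.647 and 0.336 CPM in WT NMDA libraries, against 3.22, 3.52 and 4.11 CPM in WT uninjured libraries, a mean 7.65-fold lower. In csf1ra mutants it had 0.460, 0.529 and 0.829 CPM after NMDA and 13.8, 6.27 and 10.0 CPM in uninjured retinas, a mean 16.5-fold lower. In csf1rb mutants it had 0.525, 0.669 and 0.636 CPM after NMDA and 11.7, 8.47 and 7.96 CPM in uninjured retinas, a mean 15.4-fold lower. All 9 injured libraries stood below 1 CPM and all 9 uninjured ones above 3 CPM. The log2 fold changes were -4.03 ± 0.31 (SE, edgeR adjusted p = 3e-09) in csf1ra mutants, -3.92 ± 0.31 (SE, edgeR adjusted p = 4.9e-09) in csf1rb mutants and -2.93 ± 0.33 (SE, edgeR adjusted p = 4.4e-07) in WT fish.

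The gene mbpa had 0.972, 1.45 and 0.895 CPM in WT NMDA libraries, against 6.36, 6.85 and 5.81 CPM in WT uninjured libraries. In csf1ra mutants it had 0.673, 0.811 and 1.1 CPM after NMDA, against 13.4, 7.43 and 15.3 CPM in uninjured retinas, and in csf1rb mutants 1.20, 1.53 and 1.41 CPM after NMDA, against 27.7, 16.9 and 10.4 CPM. The injured means were 14.0-fold lower in csf1ra mutants, 13.3-fold lower in csf1rb mutants and 5.74-fold lower in WT fish. The log2 fold changes were -3.79 ± 0.36 (SE, edgeR adjusted p = 4.1e-08), -3.71 ± 0.34 (SE, edgeR adjusted p = 3.4e-08) and -2.52 ± 0.35 (SE, edgeR adjusted p = 5.7e-06) in that order. For plp1b the libraries had 1.04, 1.79 and 0.895 CPM after NMDA in WT fish, against 7.60, 7.92 and 6.94 CPM in WT uninjured retinas. In csf1ra mutants plp1b had 1.38, 1.55 and 1.86 CPM after NMDA and 21.7, 14.2 and 17.2 CPM uninjured, and in csf1rb mutants 2.44, 2.22 and 2.83 CPM and 25.1, 16.1 and 17.2 CPM. Its log2 fold changes were -3.46 ± 0.24 (SE, edgeR adjusted p = 9.8e-10) in csf1ra mutants, -2.97 ± 0.23 (SE, edgeR adjusted p = 4.9e-09) in csf1rb mutants and -2.60 ± 0.25 (SE, edgeR adjusted p = 7e-08) in WT fish.

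The other sheath genes moved less or otherwise. For mbpb the group means were 14.9 ± 1.72 CPM after NMDA and 22.5 ± 0.983 CPM uninjured in WT fish, 14.5 ± 3.21 and 34.2 ± 7.51 CPM in csf1ra mutants, and 13.8 ± 2.86 and 32.7 ± 0.477 CPM in csf1rb mutants (SD, n = 3 each). Its log2 fold changes were -1.24 ± 0.18 (SE, edgeR adjusted p = 7.1e-06), -1.25 ± 0.18 (SE, edgeR adjusted p = 7.2e-06) and -0.59 ± 0.18 (SE, edgeR adjusted p = 0.007) in csf1ra, csf1rb and WT fish. For mpz the csf1rb mutants had 0.788, 0.836 and 0.883 CPM after NMDA and 10.5, 4.22 and 3.81 CPM uninjured, and the log2 fold change of -2.87 ± 0.42 (SE, edgeR adjusted p = 8.7e-06) was the largest of the 3 genotypes, or -2.26 without csf1rb uninjured library 1. In csf1ra mutants mpz had 0.460, 0.811 and 0.553 CPM after NMDA and 2.1, 0.841 and 1.44 CPM uninjured, with -1.25 ± 0.46 (SE, edgeR adjusted p = 0.021). That call was lost without csf1ra uninjured library 1 (-0.90) or csf1ra NMDA library 1 (-1.04) or 3 (-1.18). In WT fish mpz had 0.268, 0.875 and 0.559 CPM after NMDA and 1.32, 1.17 and 1.09 CPM uninjured, with -1.09 ± 0.47 (SE, edgeR adjusted p = 0.049). That call was lost without WT NMDA library 1 (-0.73) or 3 (-1.08), or without WT uninjured library 1 (-1.01), 2 (-1.1) or 3 (-1.15).

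Of the lineage genes sox10 fell in all 3 genotypes. It had 7.13, 10.8 and 12.6 CPM in WT NMDA libraries, against 67.0, 78.3 and 72.5 CPM in WT uninjured libraries, a mean 7.14-fold lower with a log2 fold change of -2.84 ± 0.21 (SE, edgeR adjusted p = 3.1e-09). In csf1ra mutants it had 13.0, 12.9 and 8.32 CPM after NMDA and 86.5, 87.4 and 57.6 CPM uninjured, with -2.76 ± 0.21 (SE, edgeR adjusted p = 2.9e-09). In csf1rb mutants it had 26.1, 25.3 and 26.6 CPM after NMDA and 70.5, 63.0 and 82.9 CPM uninjured, a smaller fall of -1.47 ± 0.20 (SE, edgeR adjusted p = 4.2e-06). The receptor gene erbb3b had 0.804, 0.838 and 1.01 CPM after NMDA and 0.537, 0.366 and 0.340 CPM uninjured in WT fish, with 1.09 ± 0.41 (SE, edgeR adjusted p = 0.026). That call was lost without WT NMDA library 3 (0.99) or WT uninjured library 2 (1.01) or 3 (0.96).

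In mutants erbb3b did not pass, at -0.08 (edgeR adjusted p = 0.87) in csf1ra mutants and -0.53 (edgeR adjusted p = 0.23) in csf1rb mutants. Without csf1rb uninjured library 3 it was called in csf1rb mutants, at -0.91. The counts of nkx2.2a and olig1 were too low to be tested in the NMDA experiment: nkx2.2a was at most 0.244 CPM and olig1 at most 0.162 CPM in any of the 18 libraries, and olig1 had 32 counts in all 30 libraries together. The values of nkx2.2a were 0.0375, 0.0955 and 0.0353 CPM in csf1rb NMDA libraries, against 0.244, 0.111 and 0.115 CPM in csf1rb uninjured libraries, and 0.134, 0 and 0.0373 CPM in WT NMDA libraries, against 0.124, 0.0367 and 0.151 CPM in WT uninjured ones, which lie near the level of 3 counts.

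**Figure D3:**
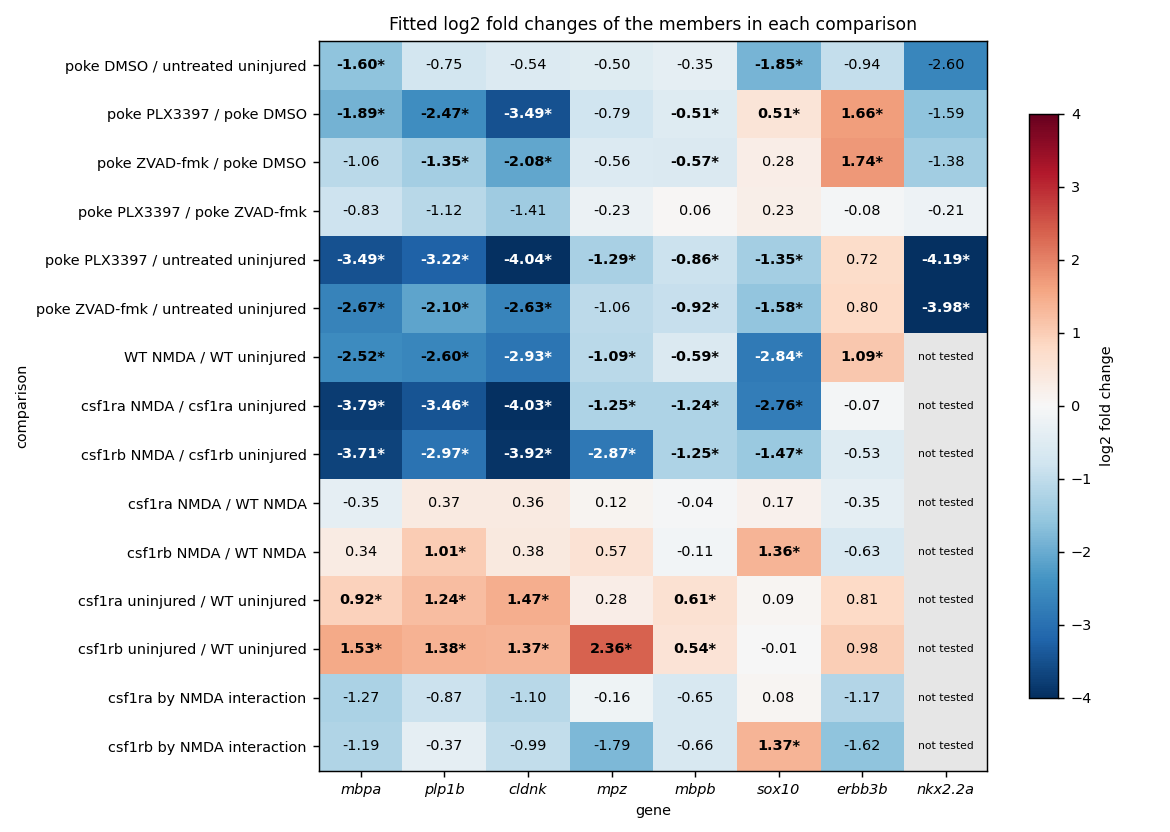
Fitted log2 fold changes of the 8 members tested in any comparison, with the group named before the slash over the group after it. Blue is lower, red is higher, an asterisk and bold type mark an adjusted p under 0.05, and grey cells were not tested. The columns of mbpa, plp1b and cldnk are blue in every injury comparison and red in both comparisons of uninjured mutants with WT, while sox10 and erbb3b differ from them in several rows.

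Sheath genes were higher in uninjured retinas of both mutants than in WT uninjured retinas. In csf1ra mutants 4 of 7 members were higher and none lower, beside 14.7% of all genes called, 7.94% as higher and 6.74% as lower. In csf1rb mutants 5 were higher and none lower, beside 26.9% of all genes called, 14.5% as higher and 12.4% as lower. The medians over the 7 were 0.81 and 1.37 on the log2 scale, against 0.04 and 0.05 over all genes. All mutant libraries lay above all WT libraries for 16% of all genes tested in csf1ra mutants and 28.2% in csf1rb mutants. The 2 comparisons share the WT libraries. For plp1b all 6 mutant libraries, between 14.2 and 25.1 CPM, stood above the WT libraries at 7.60, 7.92 and 6.94 CPM, with log2 fold changes of 1.24 ± 0.21 (SE, edgeR adjusted p = 0.00095) in csf1ra mutants and 1.38 ± 0.21 (SE, edgeR adjusted p = 0.00017) in csf1rb mutants. For cldnk the mean was 2.77-fold higher in csf1ra mutants and 2.59-fold higher in csf1rb mutants, at 1.47 ± 0.26 (SE, edgeR adjusted p = 0.0011) and 1.37 ± 0.26 (SE, edgeR adjusted p = 9e-04).

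The csf1rb mutants had a mean of mbpa 2.89-fold above WT, without overlap, with a log2 fold change of 1.53 ± 0.30 (SE, edgeR adjusted p = 0.0012). In csf1ra mutants the mean was 1.90-fold higher, also without overlap, at 0.92 ± 0.30 (SE, edgeR adjusted p = 0.048). This call was lost without WT uninjured library 1 (0.92), 2 (0.98) or 3 (0.86), and without csf1ra uninjured library 1 (0.84) or 5 (0.71). It was also lost with RLE size factors (0.903) and without the filter on low counts (0.904). The same held with only the groups compared in the fit (0.905) and with the replicate number as a block (0.719). For mbpb the csf1ra libraries had 29.0, 30.8 and 42.8 CPM and the csf1rb libraries 33.1, 32.2 and 32.9 CPM, against 23.4, 22.5 and 21.4 CPM in WT libraries. Its log2 fold changes were 0.61 ± 0.18 (SE, edgeR adjusted p = 0.028) and 0.54 ± 0.18 (SE, edgeR adjusted p = 0.029). The csf1ra call was lost without WT uninjured library 1, 2 or 3 (0.64, 0.61 and 0.58) or csf1ra library 5 (0.41). It was also lost with only the groups compared in the fit (0.592) and with the replicate number as a block (0.633). The csf1rb call was lost without any 1 of its 6 libraries, with values from 0.51 to 0.57.

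Myelin protein zero was called in 1 of the mutants. The gene mpz had 2.1, 0.841 and 1.44 CPM in csf1ra mutants and 10.5, 4.22 and 3.81 CPM in csf1rb mutants, against 1.32, 1.17 and 1.09 CPM in WT uninjured libraries. It was called in csf1rb mutants at 2.36 ± 0.41 (SE, edgeR adjusted p = 0.00044), or 1.74 without csf1rb uninjured library 1, and not in csf1ra mutants at 0.28 ± 0.43 (SE, edgeR adjusted p = 0.69). The 2 mutants were not tested against each other. Lineage genes did not pass: sox10 had means of 77.2 ± 16.9 CPM in csf1ra mutants, 72.1 ± 10.1 CPM in csf1rb mutants and 72.6 ± 5.68 CPM in WT fish (SD, n = 3 each). Its log2 fold changes of 0.09 and -0.01 had 95% intervals of -0.32 to 0.50 and -0.42 to 0.40. The values of erbb3b were 0.81 (edgeR adjusted p = 0.2) and 0.98 (edgeR adjusted p = 0.089). Without csf1rb uninjured library 3 erbb3b was called at 1.36 in csf1rb mutants.

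Mutants and WT fish were also compared after NMDA. In csf1ra mutants edgeR called none of 7, none had an unadjusted p under 0.05 and DESeq2 called 0, beside 22.4% of all genes called, 9.24% as higher and 13.2% as lower. In csf1rb mutants sox10 and plp1b were higher than in WT fish after NMDA, 2 of 7 members, beside 23.2% of all genes called, 11.9% as higher and 11.4% as lower. For sox10 the csf1rb libraries stood above every WT library, a mean 2.56-fold higher with a log2 fold change of 1.36 ± 0.21 (SE, edgeR adjusted p = 0.00017). Such a separation upward was found for 22.3% of all genes tested. For plp1b the mean was 2.01-fold higher, at 1.01 ± 0.26 (SE, edgeR adjusted p = 0.0096), and the call was lost without WT NMDA library 1 (0.89) or 3 (0.82). The 95% intervals of the log2 difference from WT for mbpa and cldnk were -1.20 to 0.51 and -0.45 to 1.18 in csf1ra mutants and -0.46 to 1.13 and -0.42 to 1.18 in csf1rb mutants.

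Whether the injury change itself differed from that of WT fish was tested as an interaction, the NMDA change of the mutant minus that of the WT on the log2 scale. In csf1rb mutants sox10 was called at 1.37 ± 0.28 (SE, edgeR adjusted p = 0.0074), the single member of 7 in that test, beside 8.18% of all genes called, 4.10% as higher and 4.07% as lower. In csf1ra mutants edgeR called none of 7, beside 5.83% of all genes called, 2.56% as higher and 3.27% as lower, and DESeq2 called none, while 4 members had an unadjusted p under 0.05. These 4 were all below 0, with mbpa at -1.27 ± 0.50 (SE, edgeR adjusted p = 0.15), cldnk at -1.1 ± 0.47 (SE, edgeR adjusted p = 0.18), plp1b at -0.87 ± 0.35 (SE, edgeR adjusted p = 0.16) and mbpb at -0.64 ± 0.25 (SE, edgeR adjusted p = 0.14). In csf1rb mutants 6 members had an unadjusted p under 0.05 and DESeq2 called 2, sox10 and mpz. Of the 6 only sox10 was above 0. The edgeR value of mpz was -1.79 ± 0.64 (SE, edgeR adjusted p = 0.094). That of erbb3b was -1.62 ± 0.57 (SE, edgeR adjusted p = 0.09) and that of mbpb -0.66 ± 0.25 (SE, edgeR adjusted p = 0.12). The csf1rb value of mbpa was -1.19 ± 0.48 (SE, edgeR adjusted p = 0.15) and that of cldnk -0.99 ± 0.47 (SE, edgeR adjusted p = 0.22). Without csf1rb uninjured library 3, 4 members were called in csf1rb mutants, mbpa among them (-1.48, edgeR adjusted p = 0.036). In the fit of all libraries neither mbpa nor cldnk passed in either mutant.

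In the NMDA experiment the order of the group means, low to high, was the 3 injured groups, then WT uninjured, then the mutants for mbpa, plp1b, cldnk and mpz. For cldnk the means were 0.473 ± 0.159 CPM in WT NMDA, 0.606 ± 0.196 CPM in csf1ra NMDA and 0.610 ± 0.0753 CPM in csf1rb NMDA libraries (SD, n = 3 each), which overlapped. They were 3.62 ± 0.453 CPM in WT uninjured, 9.37 ± 2.01 CPM in csf1rb uninjured and 10.0 ± 3.75 CPM in csf1ra uninjured libraries. The WT uninjured libraries overlapped neither neighbour, and the uninjured mutants overlapped each other. For mbpa the uninjured means were 6.34 ± 0.522 CPM in WT, 12 ± 4.10 CPM in csf1ra and 18.3 ± 8.77 CPM in csf1rb fish, and the csf1ra and csf1rb libraries overlapped.

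Markers of other retinal cells differed in many of the comparisons in which the sheath genes did, and their part in these results was not tested. Counts of list genes here and below stand beside the shares of all genes called, given above for each comparison. After NMDA those shares were 69.9% to 73.5%. Of 15 markers of retinal ganglion cells, the neurons whose axons are myelinated, 8 were matched, and none of the 8 was at 0 in all libraries of any group. After NMDA 6 of the 8 were lower and 1 higher in each genotype, the higher one being gap43, a gene of growing axons. The ganglion cell transcription factor gene pou4f2 averaged 2.72 ± 0.886 CPM after NMDA and 23.6 ± 9.04 CPM uninjured in csf1ra mutants, 3.01 ± 0.824 and 29.7 ± 0.610 CPM in csf1rb mutants, and 0.925 ± 0.516 and 15.1 ± 4.19 CPM in WT fish (SD, n = 3 each). In injured libraries gap43 made up most of the summed level of the list, at 282 ± 48.9 CPM in WT NMDA libraries, against 7.21 ± 0.427 CPM in WT uninjured ones. The sums were 277 to 391 CPM in csf1ra NMDA libraries, against 72 to 113 CPM in csf1ra uninjured ones. In csf1rb fish they were 154 to 479 CPM after NMDA, against 123 to 163 CPM uninjured, and in WT fish 256 to 348 CPM, against 52.9 to 72 CPM. Between uninjured mutants and WT, 6 of 8 were higher in csf1rb mutants and none was called in csf1ra mutants, where the median was 0.65 on the log2 scale. In the needle poke experiment the sums were 45.4 to 119 CPM with PLX3397, 128 to 148 CPM with ZVAD-fmk, 301 to 347 CPM in DMSO and 74.5 to 138 CPM in untreated uninjured libraries. Against DMSO, 3 of 8 were lower, gap43 among them, and nefla was higher with PLX3397, and gap43 was lower with ZVAD-fmk, while 4 were lower and 1 higher in DMSO against untreated uninjured libraries.

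Rod, Müller glia and microglia genes differed in many of the same comparisons, but not in all. Of the 3 Müller glia markers tested none was called with PLX3397 or ZVAD-fmk over DMSO. Of the 4 rod markers tested none was called in DMSO over untreated uninjured libraries. Of 7 rod markers 4 were matched, and all 4 were lower after NMDA in each genotype. Their sums were 210 to 363 CPM in csf1ra NMDA libraries, against 1270 to 1920 CPM in csf1ra uninjured ones, and 115 to 283 CPM in csf1rb NMDA libraries, against 302 to 615 CPM in csf1rb uninjured ones. In WT fish they were 509 to 954 CPM after NMDA, against 2770 to 3390 CPM uninjured. All 4 were also lower in csf1rb than in WT uninjured retinas, and 1 was lower in csf1ra than in WT uninjured retinas. Of 6 Müller glia markers 3 were matched, and 2 of them were higher in each uninjured mutant, with sums of 6070 to 8400 CPM in csf1ra, 6890 to 7740 CPM in csf1rb and 3530 to 4330 CPM in WT fish. After NMDA the Müller glia sums were 1070 to 1440 CPM in csf1ra, 2360 to 2680 CPM in csf1rb and 907 to 1610 CPM in WT fish, and 2 of the 3 were lower and 1 higher in each genotype. In DMSO 2 of 3 were lower than in untreated uninjured libraries, with sums of 3500 to 3690 CPM in DMSO, against 6290 to 10400 CPM in untreated uninjured libraries. Of the microglia and macrophage markers tested after NMDA, 6 of 8 were higher and 2 lower in csf1ra mutants, 3 were higher and 1 lower in csf1rb mutants, and 6 were higher and 1 lower in WT fish. In uninjured retinas 5 of 8 were lower in each mutant than in WT, with medians of -2.28 in csf1ra and -1.32 in csf1rb mutants on the log2 scale. The summed levels of the list, which rest mostly on its most abundant genes, went the other way. They were 7290 to 9510 CPM in csf1ra, 6710 to 8230 CPM in csf1rb and 5640 to 6540 CPM in WT fish. After NMDA 7 of 8 were lower and 1 higher in csf1rb mutants than in WT fish, and 4 were lower in csf1ra mutants. The medians over the 8 were -2.24 and -1.17 on the log2 scale in that order. The sums were then 7870 to 10400 CPM in csf1rb, 4400 to 4980 CPM in csf1ra and 3660 to 6520 CPM in WT fish. In DMSO 6 of 9 markers were higher than in untreated uninjured libraries. With PLX3397 7 of 9 matched microglia and macrophage markers were lower than in DMSO, and with ZVAD-fmk 2 of 9 were lower. Their sums were 9930 to 14800 CPM with PLX3397, 16200 to 16700 CPM with ZVAD-fmk and 14300 to 17000 CPM in DMSO. Each drug group overlapped DMSO in these sums, while the medians over the 9 were -3.02 with PLX3397 and -1.10 with ZVAD-fmk on the log2 scale. All 4 rod genes were lower with PLX3397 and 3 of 4 with ZVAD-fmk, at sums of 159 to 362 and 310 to 373 CPM, against 966 to 1100 CPM in DMSO. The keratins krt8, krt18a.1 and krt18b, used as markers of optic nerve astrocytes, were called in the opposite direction to the sheath genes in several comparisons. Their sums were 164 to 285 CPM in csf1rb, 244 to 289 CPM in csf1ra and 308 to 427 CPM in WT uninjured fish, and all 3 were higher after NMDA in each genotype. Genes listed as markers of neural crest and pigment cells were not traced to a cell type here. They were scarce, with 6 of 8 matched and 3 tested, and foxd3 and tyr at 0 in whole groups. Their sums were 9.46 to 13.2 CPM in csf1ra NMDA, 5.81 to 13 CPM in csf1rb NMDA and 3.42 to 5.26 CPM in WT NMDA libraries, against 1.47 to 2.4, 1.02 to 3.07 and 3.97 to 4.6 CPM in the uninjured libraries of the same genotypes. Endothelial markers, 5 of 6 matched, and blood markers, 3 of 6 matched, gave no called gene in the uninjured csf1ra comparison for endothelium and 3 lower for blood, and no called gene for endothelium and 2 lower for blood in the uninjured csf1rb comparison. Of 7 muscle markers 5 were matched, and only 1 passed the filter on low counts in the NMDA experiment. The sums of the 5 were 61.8 to 92.6 CPM in csf1ra NMDA, 16.2 to 65 CPM in csf1rb NMDA and 8.31 to 21.7 CPM in WT NMDA libraries. In any uninjured library of that experiment the sum was at most 1.1 CPM.

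Of 23 other sheath genes 14 were matched, 14 were tested after needle poke and 12 after NMDA. They changed in both directions. Between uninjured fish 3 of 12 were higher and 1 lower in csf1ra mutants, and the same counts were found in csf1rb mutants. Those with the smallest adjusted p included mag, an adhesion protein of the inner sheath, at 0.95 (edgeR adjusted p = 0.0065) in csf1ra mutants, and zwi, a gene of myelinating glia in zebrafish, at 0.82 (edgeR adjusted p = 0.032) in csf1ra and 1.26 (edgeR adjusted p = 0.001) in csf1rb mutants. After NMDA 6 were lower and 5 higher in csf1ra mutants, 5 and 5 in csf1rb mutants, and 5 and 2 in WT fish. The medians were -0.47, 0.01 and -0.84 on the log2 scale. Beside these counts, 73.5%, 70.5% and 69.9% of all genes were called in the same 3 comparisons, also in both directions. The gene nfasca, a neurofascin of the axon and its contact with glia, fell by 3.32 on the log2 scale in WT fish (edgeR adjusted p = 2.8e-09). The gene cnp, whose product in mammals is an enzyme of oligodendrocyte cytoplasm, rose to 113 ± 12 CPM in WT NMDA libraries, against 15.2 ± 0.405 CPM in WT uninjured ones (SD, n = 3 each, edgeR adjusted p = 9.1e-10). Which cells of the retina held cnp was not tested. The interaction with NMDA was called for mag in both mutants, at -1.43 (edgeR adjusted p = 0.015) in csf1ra and -1.17 (edgeR adjusted p = 0.029) in csf1rb mutants. Against DMSO, 3 of 14 were lower and 2 higher with PLX3397, with cnp at -1.07 (edgeR adjusted p = 0.00026) and zwi at -2.21 (edgeR adjusted p = 9e-04). With ZVAD-fmk zwi alone was lower, at -1.21 (edgeR adjusted p = 0.041), and none was higher. In DMSO against untreated uninjured retinas 5 were lower and 4 higher, with cnp at 1.77 (edgeR adjusted p = 3.7e-06) and tspan2a at -1.37 (edgeR adjusted p = 1.7e-05).

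Of 24 other lineage genes 19 were matched, 16 were tested after needle poke and 14 after NMDA. Among them was olig2, a basic helix-loop-helix factor of oligodendrocyte precursors that also marks progenitors in the retina. It was higher in WT fish after NMDA, where the sheath genes were lower, and in DMSO over untreated uninjured retinas, where mbpa was lower. With both drugs over DMSO it was lower, as were plp1b and cldnk. It averaged 11.3 ± 6.13 CPM in WT NMDA libraries and 0.838 ± 0.231 CPM in WT uninjured libraries (SD, n = 3 each), with a log2 fold change of 3.73 (edgeR adjusted p = 1.4e-05). In the needle poke experiment it averaged 1.51 ± 0.458 CPM with PLX3397, 2.35 ± 0.646 CPM with ZVAD-fmk, 21.9 ± 4.32 CPM in DMSO and 4.06 ± 1.43 CPM in untreated uninjured libraries. Its log2 fold change was -3.87 (edgeR adjusted p = 6.3e-06) with PLX3397 over DMSO, -3.22 (edgeR adjusted p = 2.7e-05) with ZVAD-fmk over DMSO and 2.43 (edgeR adjusted p = 5.2e-05) in DMSO over untreated uninjured libraries. The precursor receptor gene pdgfra was at 2.78 (edgeR adjusted p = 6.5e-06) in the last of these. The partner receptor of erbb3b, encoded by erbb2, was higher with both drugs than in DMSO, at 1.28 (edgeR adjusted p = 0.00034) with PLX3397 and 1.16 (edgeR adjusted p = 0.0015) with ZVAD-fmk. Of the 16, 4 were higher and 4 lower with PLX3397 over DMSO, 3 and 4 with ZVAD-fmk, and 3 and 2 in DMSO over untreated uninjured libraries. After NMDA, of 14, 5 were higher and 6 lower in csf1ra mutants, 6 and 6 in csf1rb mutants and 3 and 5 in WT fish, beside 73.5%, 70.5% and 69.9% of all genes called. The neuregulin gene nrg1, which encodes a ligand of erbb receptors, was at -1.87 (edgeR adjusted p = 4.3e-08) in WT fish. Between uninjured fish 2 were higher in csf1ra mutants and 5 in csf1rb mutants, and none was lower.

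Of 9 genes of myelin lipid synthesis only ugt8, fa2h and aspa were matched. After NMDA 1 of these 3 was higher and 1 lower in both WT fish and csf1ra mutants. In csf1rb mutants after NMDA 1 was lower and none higher. In DMSO over untreated uninjured libraries 1 was higher and 1 lower. The gene aspa, which in mammals encodes the enzyme that frees acetate from N-acetylaspartate in oligodendrocytes, averaged 5.98 ± 1.88 CPM in WT NMDA libraries and 55.0 ± 1.94 CPM in WT uninjured libraries (SD, n = 3 each), with a log2 fold change of -3.20 (edgeR adjusted p = 3.1e-08). In DMSO over untreated uninjured libraries it was at -1.19 (edgeR adjusted p = 0.0056). The fatty acid hydroxylase gene fa2h was higher in uninjured mutants, at 0.72 (edgeR adjusted p = 0.039) in csf1ra and 1.32 (edgeR adjusted p = 0.00031) in csf1rb mutants, and ugt8, which makes galactolipids of myelin, was at -1.5 (edgeR adjusted p = 0.04) with PLX3397 over DMSO.

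Likeness to the sheath genes was measured as Pearson's r across libraries between the log2 CPM of a gene and the mean standardised log2 CPM of the 5 sheath genes, over 12 needle poke libraries and, apart from them, 18 NMDA libraries. Libraries of a group share their treatment and handling, so r is a description, and 19920 genes were tested in both. Among the members that make up that mean, plp1b had r of 0.98 and 0.983, cldnk 0.973 and 0.982 and mbpa 0.962 and 0.99 over the needle poke and the NMDA libraries. The other two of the 5 lay lower, mbpb at 0.854 and 0.941 and mpz at 0.848 and 0.876, below several genes outside the mean. The values of sox10 were 0.556 and 0.873, and those of erbb3b were -0.592 and 0.039. Outside the members the 10 genes with the highest smaller r were cd59a, selenou1a, si:dkey-16p21.8, UGP2, PLPP1, SH3BGRL3, H3-3B, CKB, si:ch73-14h10.4 and ATP1B4. Of these cd59a had r of 0.962 and 0.956 and selenou1a 0.943 and 0.948. Both were picked for following the sheath genes over these libraries, so their levels are a description, with no test. The gene cd59a encodes a membrane-bound inhibitor of complement. The list of other sheath genes held the symbol cd59, which matched no gene, so cd59a is not counted in that list. Being outside the members therefore does not make cd59a a gene apart from myelin. The levels of cd59a were 0.426, 0.427 and 0.318 CPM with PLX3397, 1.35, 1.01 and 1.16 CPM with ZVAD-fmk and 1.25, 3.17 and 7.64 CPM in DMSO. The gene selenou1a, which encodes a selenoprotein, had 81.4, 101 and 92.5 CPM with PLX3397, 104, 103 and 95.1 CPM with ZVAD-fmk and 128, 128 and 156 CPM in DMSO. For selenou1a every drug library lay below every DMSO library, and for cd59a every PLX3397 library did, while ZVAD-fmk and DMSO overlapped. In uninjured fish cd59a had 21.0, 9.85 and 16.1 CPM in csf1ra mutants and 27.0, 19.8 and 15.4 CPM in csf1rb mutants, against 6.45, 5.24 and 5.92 CPM in WT fish.

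**Figure D4:**
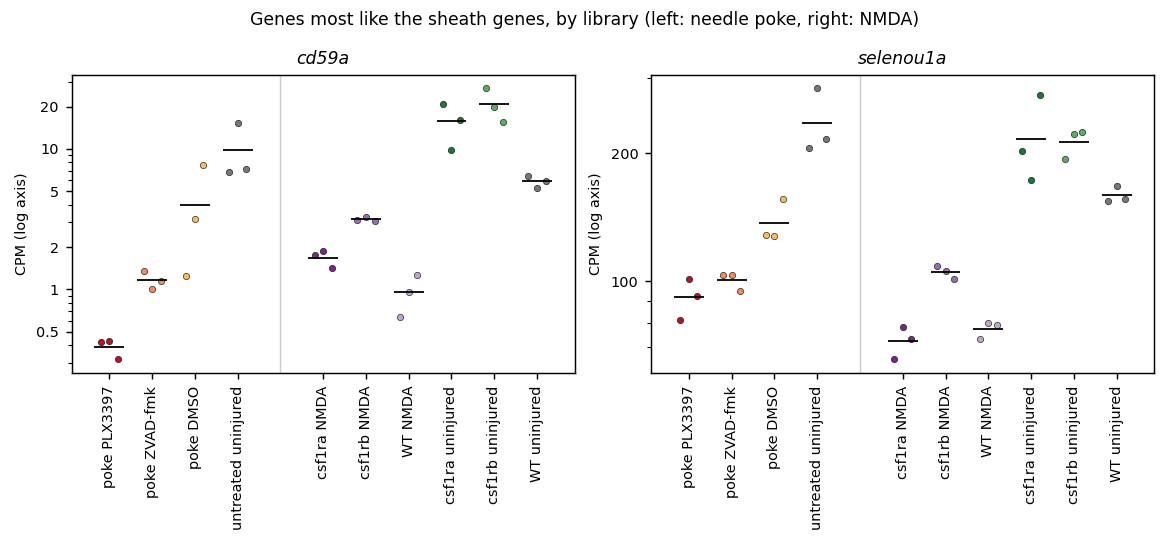
Levels of cd59a and selenou1a, the 2 genes outside the members listed first by likeness to the sheath genes, in each library, in CPM on a log axis, with the needle poke experiment left of the grey line and the NMDA experiment right of it. Points are libraries and black bars are group means. Every injured library of the NMDA experiment lies below every uninjured library, and the uninjured mutants lie above WT. Both genes were picked for following the sheath genes. Within single genotypes such a separation downward after NMDA held for 35.7% to 38.1% of all genes tested.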

How the data were processed

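RNA from adult zebrafish retinas was sequenced in 30 libraries. The submitters' processing notes name the build GRCz11 and, as tools, RSEM 1.3.3, STAR 2.7.8a, cutadapt 4.8 and FastQC 0.11.8. The 2 deposited tables hold the authors' expected counts per gene, which are whole numbers as deposited, and the use of strand in counting is not given in the sources used here. Their 9 columns that match no sample and the 4 rows of reporter transgenes were not used. Symbols were matched as written, in another letter case or through a RefSeq synonym in capitals. Failing that, a capital form with a hyphen for the point, or without the paralog letter, was taken. The last rule matched pmp22b to PMP22, nfasca to NFASC and fli1a to FLI1, so their paralog rests on the symbol alone.

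Each experiment was fitted by itself with edgeR 4.0.16 (R 4.3.3, limma 3.58.1): TMM factors, the filterByExpr filter, which kept 21334 of 25975 genes after needle poke and 20254 of 26728 after NMDA, 1 mean per group, and the robust quasi-likelihood test, two-sided, with Benjamini-Hochberg adjustment over all genes kept. Genes with an adjusted p under 0.05 were called. The SE is the log2 fold change divided by the square root of F. Likeness used log2 CPM with a prior count of 2. Intervals and floors cover counting error or the spread between libraries only.

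Alternatives were DESeq2 1.42.0, RLE size factors, no filter, only the groups compared, the replicate number as a block, and leaving out each library. Scripts were tested on simulated counts. The members, the gene lists and the tests were chosen with earlier results of these data known. Of the named set 1 gene, and 1 of the other sheath genes, are not reported here and enter no count or mean over a list. Of the other lists up to 3 called genes per comparison with the smallest adjusted p were named. The markers gap43, pou4f2, nefla, foxd3 and tyr were named after their values were seen.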

Additional observations from a re-analysis of the deposited data

Results flagged for a closer look

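The change of sox10 after NMDA differed between csf1rb mutants and WT fish. The interaction was 1.37 ± 0.28 (SE, edgeR adjusted p = 0.0074) on the log2 scale, with sox10 at -1.47 in csf1rb mutants and -2.84 in WT fish, and it was called in every setting tried. The csf1rb NMDA libraries had 26.1, 25.3 and 26.6 CPM and the WT NMDA libraries 7.13, 10.8 and 12.6 CPM, without overlap, while the csf1rb uninjured libraries had 70.5, 63.0 and 82.9 CPM and the WT uninjured libraries 67.0, 78.3 and 72.5 CPM, with overlap. In csf1ra mutants the same interaction was 0.08 (edgeR adjusted p = 0.92). The summed Müller glia markers were 2360 to 2680 CPM in csf1rb NMDA libraries and 907 to 1610 CPM in WT NMDA libraries, and their part in the difference was not tested.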

How the results depend on the processing

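Of 111 tests of a member in a comparison 56 were called, 41 of these calls held in every setting tried, and no called value changed sign. DESeq2 lost no call, RLE size factors lost 1, testing without the low-count filter 4, fitting only the groups compared 5, the replicate block 5, and leaving out both libraries that stood apart, an alternative chosen after seeing the data, 3. The counts of members called that moved by over 1.5 times were these. For DMSO over untreated uninjured libraries the count of 2 was 5 without the 2 libraries that stood apart and 1 to 4 when leaving out each library. For PLX3397 over ZVAD-fmk the count of 0 was 2 by DESeq2, 2 with only the groups compared, 2 without the 2 libraries and 0 to 1 when leaving out each library. For ZVAD-fmk over DMSO the count of 4 was 1 to 4 when leaving out each library. For csf1rb over WT after NMDA the count of 2 was 1 to 2 in the same way. For uninjured csf1ra over WT the count of 4 was 2 under the replicate block, 2 with only the groups compared and 2 to 4 when leaving out each library. For the csf1rb interaction the count of 1 was 2 by DESeq2 and 1 to 4 when leaving out each library. The cause of these changes was not tested.

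Libraries with the same number did not deviate together: r was -0.132 to 0.162 over 18 pairs in the needle poke experiment, 3 of them over 0.1, and -0.15 to 0.142 over 32 pairs in the NMDA experiment, 2 of them over 0.1. These values gave no clear sign of pairing by number. With so few libraries a group, they cannot show that the numbers mark no shared fish or handling. With the replicate block mpz lost its call in PLX3397 over untreated uninjured libraries and after NMDA in WT and csf1ra fish, and mbpa and mbpb lost theirs in uninjured csf1ra over WT.

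Some values that were not called changed sign. Under the replicate block these were erbb3b at 0.006 in csf1ra NMDA over csf1ra uninjured, mbpb at 0.012 in csf1rb over WT after NMDA and sox10 at -0.12 in the csf1ra interaction. Without the 2 libraries that stood apart mpz was at 0.12 in DMSO over untreated uninjured libraries. When leaving out each library in turn, the range of the log2 fold change that crossed 0 for DMSO over untreated uninjured was mpz -0.82 to 0.23. For PLX3397 over ZVAD-fmk they were mbpb -0.10 to 0.24, mpz -0.49 to 0.051, nkx2.2a -1.22 to 0.34 and erbb3b -0.21 to 0.065. For csf1ra NMDA over csf1ra uninjured the range was erbb3b -0.27 to 0.21. For csf1ra over WT after NMDA they were mbpb -0.23 to 0.11, mpz -0.23 to 0.57 and sox10 -0.036 to 0.35, and for csf1rb over WT after NMDA mbpb -0.23 to 0.048. For uninjured csf1ra over WT they were mpz -0.069 to 0.56 and sox10 -0.007 to 0.26, and for uninjured csf1rb over WT sox10 -0.12 to 0.08. For the csf1ra interaction they were mpz -0.52 to 0.29 and sox10 -0.13 to 0.26.

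Depth limits nkx2.2a, with 366 counts over all libraries and 5 libraries at 0, and olig1, with 32 counts and 18 libraries at 0. With 3 libraries a group, values near the threshold turned on single libraries.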

Other observations

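A pair of genes of the other lists had large changes in the NMDA experiment that differed by genotype. Of these, pmp22b was matched under the symbol PMP22, without its paralog letter. The gene pmp22b, a paralog of peripheral myelin protein 22, averaged 41.4 ± 8.35 CPM in csf1ra NMDA and 3.42 ± 0.728 CPM in csf1ra uninjured libraries, 33.1 ± 24.1 CPM in csf1rb NMDA and 1.64 ± 0.956 CPM in csf1rb uninjured libraries, and 8.74 ± 2.92 CPM in WT NMDA and 12.9 ± 1.74 CPM in WT uninjured libraries (SD, n = 3 each). The interaction was 4.16 (edgeR adjusted p = 0.0014) in csf1ra mutants and 4.86 (edgeR adjusted p = 0.00029) in csf1rb mutants. The gene s1pr5a, which encodes a sphingosine 1-phosphate receptor that mature oligodendrocytes use in mammals, averaged 16.1 ± 0.408 CPM in csf1ra NMDA libraries, against 1.07 ± 0.399 CPM in csf1ra uninjured libraries, and 0.313 ± 0.204 CPM in WT NMDA libraries, against 0.191 ± 0.0573 CPM in WT uninjured libraries. Its interaction was 3.22 (edgeR adjusted p = 0.024) in csf1ra mutants. The WT uninjured mean of s1pr5a lay near the level of 3 counts, which was 0.11 to 0.124 CPM in those libraries. Values of s1pr5a in csf1rb mutants are not given here.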
